A study of Mus musculus with 12 samples.

Results

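The genes described here are 10 established markers of radial glia and neural stem cells: Nes, Vim, Fabp7, Hopx, Tnc, Ptprz1, Slc1a3, Prom1, Msi1 and Rfx4. They are taken as a list of names, with no threshold on their counts, although earlier results of these data were known when the list was made, and each matched 1 of the 48709 gene identifiers in the count files. All 10 passed the filter on low counts in each of the 5 comparisons made, and all 10 are annotated as protein coding.

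The study sorted cells that carried a reporter for Hcrt (hypocretin, or orexin) neurons or for MCH (melanin-concentrating hormone, gene Pmch) neurons. Each sort was sequenced as reporter-positive and reporter-negative cells, which gave 4 groups of 3 libraries: mCherry-positive and mCherry-negative cells of the HCRT sort, and EGFP-positive and EGFP-negative cells of the MCH sort. All 12 libraries came from C57BL/6 mouse hypothalamus taken at embryonic day 18, infected at a multiplicity of 10, cultured in suspension as neurospheres for a week and supplied with bFGF (basic fibroblast growth factor, 10 ng/ml) from 24 h after plating. The negative groups therefore went through infection and bFGF as well. The HCRT sort used an adeno-associated virus and 0.8 ng of total RNA, and the MCH sort used a lentivirus and 2 ng. Virus, reporter and RNA input thus changed together between the sorts and cannot be told apart. The promoter that drove each reporter is not given in the sources used here. Cells were sorted by reporter fluorescence, and neurospheres generally hold progenitors and glia beside neurons.

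Radial glia line the embryonic ventricle, span the wall of the brain with a long process and produce neurons first and glia later. They share much of their gene expression with the neural stem cells that persist in adult niches, with astrocytes, and, in the hypothalamus, with tanycytes, the radial cells of the wall of the ventricle. Suspension culture with bFGF is a classical way to expand such progenitors, and these markers are the usual ones by which they are recognised.

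Libraries held 16.3 to 32.9 M (megareads) in genes. Hcrt, the gene the mCherry reporter stands for, had at most 14 reads in any library, with 3 to 14 in mCherry-positive and 1 to 5 in mCherry-negative libraries, so the transcript that defines Hcrt neurons was near 0 in both groups. Pmch lay at 16.3 to 17.8 CPM in EGFP-positive and 4.01 to 5.12 CPM in EGFP-negative libraries, in counts per megareads in genes without further scaling. The mitochondrial share of gene reads was 1.06% to 1.54% in mCherry-positive, 0.805% to 0.953% in mCherry-negative, 0.766% to 0.872% in EGFP-positive and 1.16% to 1.36% in EGFP-negative libraries. Nothing in the labels says that replicates are separate cultures, so p-values measure the spread between these libraries, which may be technical.

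Per kilobase of exon, the markers spanned more than 3 orders of magnitude and kept a similar order in all groups. Levels are given as TMM-scaled CPM, reads per megaread in genes after edgeR's correction for library composition over the 12 libraries. Divided by exon length, Fabp7, the brain fatty acid binding protein of radial glia, was the highest in every group, at 1985 ± 432 CPM per kb (SD, n = 3) in mCherry-positive, 2757 ± 344 in mCherry-negative, 3478 ± 628 in EGFP-positive and 2356 ± 148 in EGFP-negative cells. Slc1a3, the glutamate transporter GLAST, came next in every group, at 421 ± 116, 358 ± 150, 669 ± 148 and 261 ± 11.4 CPM per kb in the same order of groups. Neither gene overlapped its neighbours in the order in any group.

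Vim and Ptprz1 followed and overlapped each other in 3 of the groups. In EGFP-negative cells alone the libraries separated them, with Vim at 106 ± 8.27 and Ptprz1 at 80.7 ± 5.70 CPM per kb (SD, n = 3). Hopx, Rfx4, Tnc, Nes and Prom1 filled the middle in an order that changed between groups. Tnc was the fifth in EGFP-positive cells (48.7 ± 21.5 CPM per kb) and the eighth in mCherry-negative cells (5.98 ± 1.15). Msi1 was the lowest in every group, between 0.639 ± 0.0912 CPM per kb in mCherry-positive and 1.37 ± 0.175 in EGFP-negative cells, from 76 to 229 reads per library, and it did not overlap the gene above it. By mean, the classical stem cell markers Nes, Prom1 and Msi1 were thus the 3 lowest genes per length in mCherry-positive, EGFP-positive and EGFP-negative cells. Glial genes were the highest. Tnc, the next gene up, overlapped Prom1 in mCherry-positive cells and Nes in EGFP-negative cells.

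**Figure D1:**
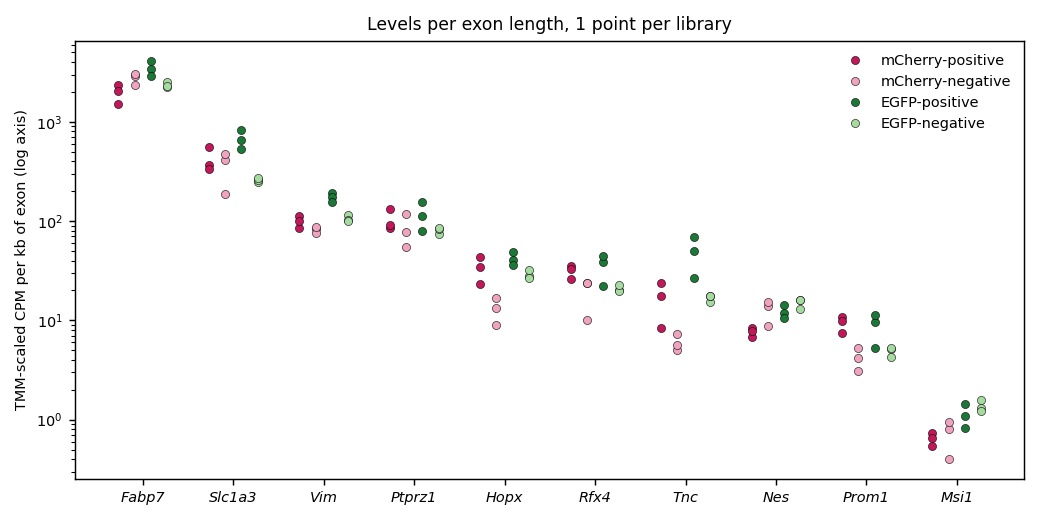
Level of each marker per kilobase of exon (TMM-scaled CPM per kb, log axis), 1 point per library, coloured by group and ordered by the mean over the 12 libraries. Fabp7 lies above 1000 and Msi1 near 1 in every group, and Tnc shows the widest spread between groups.

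The genes lie on several chromosomes of GRCm38 (mouse): Nes at chr3:87971078-87980451 and Vim at chr2:13573927-13582826 on the plus strand, Fabp7 at chr10:57784881-57788450 and Rfx4 at chr10:84756062-84906538, both plus, Ptprz1 at chr6:22875502-23052916 and Msi1 at chr5:115429599-115455698, both plus. Hopx (chr5:77086988-77115121), Prom1 (chr5:43993620-44102032), Tnc (chr4:63959785-64047015) and Slc1a3 (chr15:8634124-8710764) lie on the minus strand. Of the exon bases, 27.2% in Hopx, 5.91% in Prom1 and 2.26% in Tnc are also covered by a gene on the other strand. The library kit does not mark strand, so reads there cannot be told apart. The partner of Hopx, Hopxos, held at most 10 reads in any library, against 425 to 1687 for Hopx.

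Promoters of 9 of the 10 markers matched RefSeq entries (GRCm38.p6, 250 bases before to 50 after a start), 13 promoters in all. They were searched on both strands for 3 cores of factors known in neural progenitors, and no match of 1 core overlapped another: the RBPJ core of Notch signalling (GTGGGAA, in 6.38% of all 32851 promoters of this length), the octamer core of POU factors (ATGCAAA, in 4.63%) and a SOX core (ACAATGG, in 3.66%). Matches were found for Tnc and Rfx4, and none of the 3 cores was found in the promoters of the other 7 matched genes. Tnc is shown because it had the largest differences of the set, with the octamer core starting 204 and 116 bases before the start and the RBPJ core 3 bases before it. Its other listed promoter overlaps this one and holds the same downstream octamer and RBPJ matches. Rfx4 is shown for its SOX core 22 bases before the start, and Fabp7, the most abundant marker per length, for a promoter without any of the 3. Each is written 5′ to 3′ in the sense of the gene, with the matched cores in capitals, and a match is a description of letters and not a binding site.
Tnc, chr4:64046966-64047265, minus strand: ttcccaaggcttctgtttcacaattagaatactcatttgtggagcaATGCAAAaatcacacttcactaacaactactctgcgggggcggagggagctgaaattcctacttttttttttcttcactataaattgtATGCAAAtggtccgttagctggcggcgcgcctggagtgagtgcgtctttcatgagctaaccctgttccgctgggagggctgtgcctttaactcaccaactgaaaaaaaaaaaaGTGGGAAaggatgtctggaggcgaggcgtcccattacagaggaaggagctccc
Rfx4, chr10:84755798-84756097, plus strand: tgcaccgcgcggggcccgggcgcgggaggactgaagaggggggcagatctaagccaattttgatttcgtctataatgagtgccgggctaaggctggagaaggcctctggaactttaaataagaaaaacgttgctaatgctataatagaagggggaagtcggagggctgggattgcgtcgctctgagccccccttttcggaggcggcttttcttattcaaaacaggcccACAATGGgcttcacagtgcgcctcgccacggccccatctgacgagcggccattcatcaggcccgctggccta
Fabp7, chr10:57784673-57784972, plus strand: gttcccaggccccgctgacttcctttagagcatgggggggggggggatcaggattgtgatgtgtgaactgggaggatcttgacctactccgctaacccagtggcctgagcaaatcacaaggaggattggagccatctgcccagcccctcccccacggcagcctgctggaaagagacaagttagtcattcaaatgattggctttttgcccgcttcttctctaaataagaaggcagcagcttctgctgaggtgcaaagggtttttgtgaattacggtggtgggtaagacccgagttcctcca

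In the MCH sort, the radial glia markers leaned to the EGFP-positive cells: 5 of the 10, Slc1a3, Tnc, Vim, Fabp7 and Hopx, rose and none fell, by edgeR's quasi-likelihood test, adjusted after Benjamini and Hochberg over all 16326 genes tested. The background was 8.99% of tested genes called higher, 7.07% called lower and 16.1% called in either direction. The markers had a median log2 fold change of 0.61, against -0.01 over all genes tested, and 8 of the 10 were above 0. In these bulk samples, fewer cells of a type and less RNA per cell cannot be told apart.

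Slc1a3, which clears glutamate and marks radial glia and astrocytes, stood at 4499, 5609 and 7018 CPM in EGFP-positive replicates 1, 2 and 3, and at 2133, 2216 and 2328 CPM in EGFP-negative replicates. Its lowest positive library lay well above the highest negative one, and the negative libraries were tightly grouped. It rose 2.53-fold (log2 1.34 ± 0.14 SE, adjusted p = 5.57e-04).

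Tnc encodes tenascin C, an extracellular matrix protein of the stem cell niche. It had 208, 386 and 543 CPM in EGFP-positive cells against 119, 136 and 136 CPM in EGFP-negative cells. The groups did not overlap, but the positive libraries differed among themselves by more than the lowest of them differed from the negatives. The rise was 2.87-fold (log2 1.52 ± 0.28, adjusted p = 0.00706). Its partner Ptprz1, a receptor-type tyrosine phosphatase that carries chondroitin sulphate and binds tenascins, had 1139, 1589 and 2219 CPM against 1057, 1180.1 and 1210.1 CPM. Replicate 1 of the positives lay among the negatives, so the groups overlapped, and the value of 0.50 ± 0.20 did not pass (adjusted p = 0.121).

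The 2 intermediate filament genes differed. Vim (vimentin) had 908, 827 and 732 CPM in EGFP-positive cells and 549, 489 and 476 CPM in EGFP-negative cells. All 3 positive libraries were above all negative ones, and Vim rose 1.61-fold (log2 0.68 ± 0.11, adjusted p = 0.00334). Nes (nestin), the filament protein by which neural progenitors are most often stained, had 92.5, 75.5 and 68.0 CPM against 102, 102 and 83.1 CPM. The groups overlapped through EGFP-positive replicate 1 and EGFP-negative replicate 3, with a log2 value of -0.31 ± 0.15 (adjusted p = 0.198).

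Fabp7 stood at 5174, 4256 and 3612 CPM in EGFP-positive and 3158, 2823 and 2855 CPM in EGFP-negative cells. The groups did not overlap, and Fabp7 rose 1.46-fold (log2 0.54 ± 0.12, adjusted p = 0.0156). Hopx, a homeodomain-only cofactor found in outer radial glia and in quiescent stem cells, had 74.9, 61.4 and 54.9 CPM against 42.5, 40.4 and 48.9 CPM. These groups were also separate, by a narrower margin, and the rise was 1.43-fold (log2 0.52 ± 0.15, adjusted p = 0.0457).

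The remaining 3 markers did not pass. Rfx4, a transcription factor of neural tube patterning and ciliated progenitors, had 105, 182 and 212 CPM against 96.4, 92.4 and 107 CPM, and Prom1 (prominin 1, or CD133, a membrane protein of stem cell protrusions) had 37.5, 69.8 and 82.0 CPM against 31.0, 37.0 and 37.9 CPM. In both genes only EGFP-positive replicate 1 reached down into the negative range. Their log2 values were 0.74 ± 0.22 (adjusted p = 0.0527) and 0.82 ± 0.25 (adjusted p = 0.0558), just outside the threshold of 0.05. Both passed in DESeq2 (0.0121 and 0.0109), with no filter on low counts (0.00208 and 0.00330) and with an offset for transcript length and GC (0.0362 and 0.0265), but not with limma-voom (0.0639 and 0.0685), the stricter filter or the fit of all 12 libraries (0.178 and 0.0930). Ptprz1 passed with no filter (0.00995) and with the offset (0.0158). Msi1 (musashi 1), an RNA-binding protein of stem cells, had 8.31, 6.30 and 4.77 CPM against 9.10, 7.61 and 7.16 CPM. Its groups overlapped and its value was -0.33 ± 0.24 (adjusted p = 0.391).

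Non-overlap between the EGFP groups was found for 5 of the 10 markers, the ones that were called, beside 35.5% of all genes tested. Leaving out any 1 of the 6 libraries left Slc1a3, Tnc and Vim past the threshold each time. Hopx lost its call without EGFP-positive replicate 2 (adjusted p = 0.127) or without EGFP-negative replicate 1 (0.154), 2 (0.180) or 3 (0.0835), and Fabp7 without EGFP-positive replicate 2 (0.0541) or EGFP-negative replicate 2 (0.0753) or 3 (0.0746). Both also lost it in the fit of all 12 libraries (0.254 for Hopx and 0.0794 for Fabp7), and Hopx with the stricter filter (0.0548). Without EGFP-positive replicate 1, 9 of the 10 markers were called: the 5 above, Ptprz1 (log2 0.72), Prom1 (1.10) and Rfx4 (0.99) higher, and Nes lower (-0.43, adjusted p = 0.0184). Calls rose over all genes as well in that fit, to 5244 from 2622 with all 6 libraries.

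**Figure D2:**
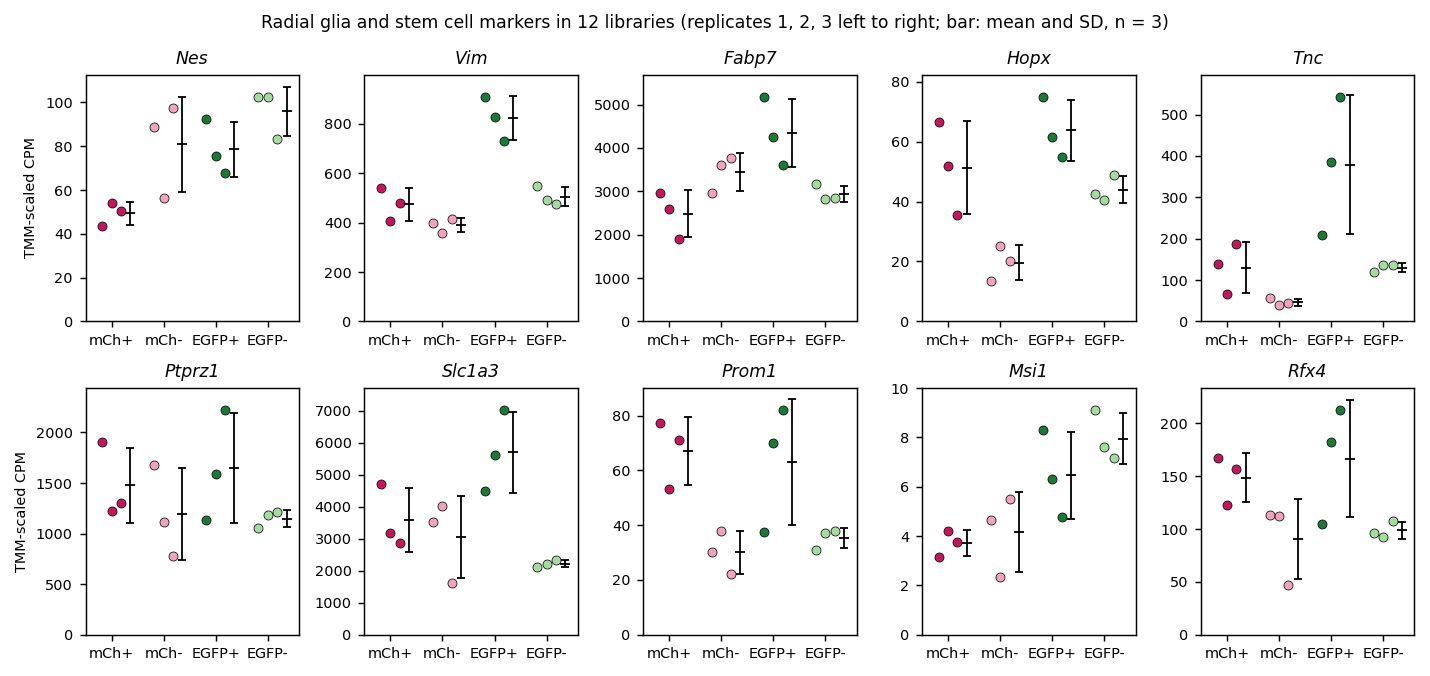
TMM-scaled CPM of each marker in every library (points, replicates 1 to 3 from left to right), with the mean and SD of each group of 3 beside them. Slc1a3, Vim, Fabp7, Hopx and Tnc are higher in every EGFP-positive than in every EGFP-negative library, while Hopx, Tnc, Prom1 and Rfx4 are higher, and Nes lower, in every mCherry-positive than in every mCherry-negative library.

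In the HCRT sort, none of the 10 markers passed the test over 17369 genes, of which 1.2% were called, 0.541% higher and 0.656% lower. The 3 largest values, Tnc, Hopx and Prom1, were 2.24-fold to 2.82-fold higher in mCherry-positive cells with adjusted p just above the threshold. The median log2 fold change was 0.30 over the markers and 0.02 over all genes, with 7 markers above 0 and 3 below. At an unadjusted p under 0.05 there were 6 markers (Hopx, Tnc, Prom1, Rfx4, Nes and Fabp7); DESeq2 called 3 and limma-voom called 0. Replicates spread more in this sort than in the MCH sort, with a common coefficient of variation of 0.382 against 0.189.

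Hopx had 66.6, 51.9 and 35.5 CPM in mCherry-positive replicates 1, 2 and 3 and 13.6, 25.2 and 20.1 CPM in mCherry-negative replicates. The groups did not overlap, and the fitted log2 value was 1.39 ± 0.30 (adjusted p = 0.0598). Tnc had 138, 65.4 and 187 CPM against 56.5, 39.1 and 43.9 CPM, with a narrow gap between positive replicate 2 and negative replicate 1, and a value of 1.50 ± 0.34 (adjusted p = 0.068). Prom1 had 77.3, 53.3 and 71.0 CPM against 30.2, 37.9 and 22.1 CPM, again without overlap, and a value of 1.17 ± 0.25 (adjusted p = 0.0598).

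These 3 markers passed in DESeq2, in edgeR with no filter on low counts and in edgeR with a stricter one, and in a fit of all 12 libraries. Their adjusted p ranged over the alternatives from 4.55e-04 to 0.169 for Hopx, from 3.07e-04 to 0.217 for Tnc and from 4.94e-04 to 0.206 for Prom1. With 1 library left out, Tnc alone passed, without mCherry-positive replicate 2 (log2 1.82, adjusted p = 0.0493).

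Nes was lower in all mCherry-positive libraries (43.6, 54.1 and 50.3 CPM) than in the negative ones (89.0, 56.2 and 97.4 CPM), and negative replicate 2 came close to the positives. Its value of -0.70 ± 0.23 did not pass (adjusted p = 0.149), although it did in the fit of all 12 libraries (-0.71, adjusted p = 0.0423). Rfx4 had 167, 123 and 157 CPM against 113, 112 and 47.3 CPM, where negative replicate 3 lay far below its group, with 0.72 ± 0.31 (adjusted p = 0.255). Nes, Hopx, Tnc, Prom1 and Rfx4 made 5 of 10 markers whose groups did not overlap, beside 25.8% of all genes tested.

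The other 5 markers overlapped between mCherry-positive and mCherry-negative cells. Fabp7 had 2964, 2582 and 1897 CPM against 2959, 3612 and 3769 CPM, where positive replicate 1 and negative replicate 1 were nearly equal (log2 -0.47 ± 0.20, adjusted p = 0.262). Vim had 539, 404 and 478 CPM against 399, 357 and 414 CPM (0.29 ± 0.17, adjusted p = 0.402). Slc1a3 had 4726, 3169 and 2880.2 CPM against 3529, 4034 and 1611 CPM, with negative replicate 3 far below the rest (0.24 ± 0.33, adjusted p = 0.732). Ptprz1 (0.32 ± 0.29, adjusted p = 0.587) ranged from 1223 to 1904 CPM against 776 to 1679.95 CPM, and Msi1 (-0.15 ± 0.45, adjusted p = 0.885) from 3.16 to 4.21 against 2.33 to 5.49 CPM. Neither showed a direction that exceeded the spread between libraries.

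**Figure D3:**
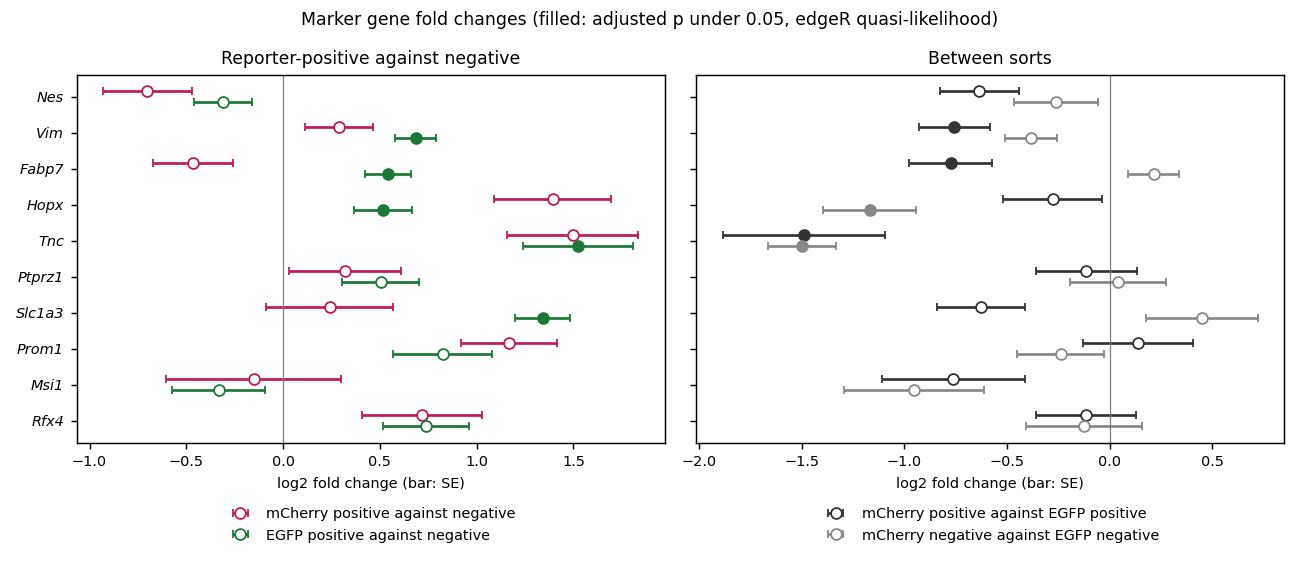
Log2 fold change with SE of each marker, reporter-positive against negative in each sort (left) and between the sorts within positive or within negative cells (right). Filled points passed an adjusted p of 0.05: 5 markers for EGFP, none for mCherry, 3 between positive cells and 2 between negative cells.

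The 2 reporter comparisons share no library, and 9 of the 10 markers had the same sign in both, against 63.3% of the 15995 genes tested in both. Fabp7 was the exception. The mCherry values of Slc1a3 (0.24 ± 0.33) and Msi1 (-0.15 ± 0.45) were smaller than their SE. Both changed sign in some fits with 1 library left out. In a single fit of all 12 libraries that tested the mCherry effect minus the EGFP effect, 0 of the 10 markers were called, beside 1.44% of 18063 genes (0.886% higher and 0.559% lower), with 4 markers at an unadjusted p under 0.05, 1 called by DESeq2 and 0 by limma-voom. Fabp7 came closest, with a difference of -1.04 ± 0.24 (adjusted p = 0.0518). It was past the threshold in DESeq2 (0.0104), with no filter (0.0117), with an offset for transcript length and GC (0.00899), and without mCherry-positive replicate 1 (0.0169) or mCherry-negative replicate 1 (0.0447).

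Slc1a3, which had passed in the EGFP comparison, had a difference of -1.13 ± 0.39 that did not pass (adjusted p = 0.184). Without mCherry-negative replicate 3, in which Slc1a3 was low, it was -1.44 and passed (0.0232), as it did with no filter on low counts (0.0334). Hopx differed the other way, by 0.85 ± 0.35 (adjusted p = 0.267), and Vim by -0.42 ± 0.20 (adjusted p = 0.328). For Tnc, which had nearly equal fold changes in both sorts, the difference was -0.06 ± 0.49 (adjusted p = 0.974); with that SE a sizeable difference could not be detected.

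Between the sorts, 3 markers fell in mCherry-positive relative to EGFP-positive cells, beside 3.77% of the 16921 genes tested that were lower, 9.12% that were higher and 12.9% called either way. Tnc fell 2.81-fold (log2 -1.49 ± 0.40, adjusted p = 0.0348), Fabp7 1.71-fold (-0.77 ± 0.20, adjusted p = 0.0331) and Vim 1.69-fold (-0.76 ± 0.17, adjusted p = 0.0192). Nes (-0.63 ± 0.19, adjusted p = 0.0555) and Slc1a3 (-0.62 ± 0.21, adjusted p = 0.0842) did not pass. Of the 10 markers, 9 were below 0, with a median of -0.63 against 0.00 for all genes, and Nes, Vim, Fabp7, Tnc and Msi1 did not overlap, beside 36.1% of all genes.

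These calls rested on few libraries. None of the 10 markers was called without mCherry-positive replicate 2, without mCherry-positive replicate 3 or without EGFP-positive replicate 2, and Tnc alone was called without EGFP-positive replicate 1. Without mCherry-positive replicate 1, Slc1a3 passed as well (log2 -0.84). Tnc lost its call also without mCherry-positive replicate 1 (adjusted p = 0.0735) or EGFP-positive replicate 3 (0.103).

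In the negative cells, 2 markers fell in the HCRT sort relative to the MCH sort, beside 1.5% of the 16612 genes tested that were lower, 3.44% that were higher and 4.94% called either way. Tnc fell 2.82-fold (log2 -1.50 ± 0.17, adjusted p = 7.17e-04), with 39.1 to 56.5 CPM against 119 to 136 CPM and no overlap. It passed with any 1 library left out, at adjusted p of 0.00950 or below. Hopx fell 2.25-fold (-1.17 ± 0.23, adjusted p = 0.0173), with 13.6 to 25.2 against 40.4 to 48.9 CPM, and lost its call without EGFP-negative replicate 1 (0.0876), 2 (0.0668) or 3 (0.108). Vim, Hopx, Tnc and Msi1 did not overlap, beside 26.4% of all genes. Without mCherry-negative replicate 3, 5 markers were called: Tnc, Hopx, Vim (-0.43) and Msi1 (-1.20) lower and Slc1a3 (0.76) higher. Calls rose over all genes as well in that fit, to 2113 from 820 with no library left out. The comparisons between sorts share their libraries with those within sorts. The low mCherry-negative level of Tnc and Hopx thus enters both the mCherry comparison and the one between negative cells.

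A wider set of progenitor genes was also higher in EGFP-positive cells in part. The list held 26 further progenitor genes (transcription factors, Notch and hedgehog pathway genes, receptors), all of which passed the filter. Of these, 9 rose in EGFP-positive cells and none fell, beside 8.99% of all genes tested called higher and 7.07% lower. The median log2 value of the 26 was 0.44, with 22 above 0 and 4 below. Mean CPM was lower in EGFP-positive than EGFP-negative cells for Sox2 (140 against 159), Notch1 (154 against 172), Notch2 (26.8 against 30.9) and Nfix (109 against 152). The 4 with the smallest adjusted p were Mfge8, a secreted phagocytosis bridge made by astrocytes and stem cells (0.70 ± 0.08, adjusted p = 6.63e-04), Sox9, a gliogenic transcription factor (0.72 ± 0.09, adjusted p = 0.00107), Pdpn, podoplanin (0.81 ± 0.12, adjusted p = 0.00244), and Ednrb, the endothelin B receptor (0.90 ± 0.16, adjusted p = 0.00546). In the mCherry comparison none of the 26 was called, 4 had an unadjusted p under 0.05, and the median was -0.01.

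Between the positive groups, 8 of these 26 genes were lower in mCherry-positive cells and none was higher, beside 3.77% and 9.12% of all genes tested. The Notch modifier Lfng (-1.04 ± 0.16, adjusted p = 0.00384) and Pdpn (-1.04 ± 0.19, adjusted p = 0.00810) had the smallest p. Between the negative groups, 2 were higher in the HCRT sort, the Notch target Hes1 (1.15 ± 0.14) and the bHLH inhibitor Id4 (1.82 ± 0.18), and 3 were lower, the receptors Notch1 (-1.52 ± 0.32) and Notch2 (-2.02 ± 0.38) and the transcription factor Nfia (-0.83 ± 0.18). Adjusted p for these 5 lay between 4.53e-04 and 0.0310. Over all genes tested between the negative groups, 3.44% were called higher and 1.5% lower.

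Family members and binding partners of the markers went in both directions in the MCH sort. Of 22 such genes, 21 passed the filter (Des did not), 6 rose and 3 fell, beside 8.99% and 7.07% of all genes tested. Gfap, the astrocyte filament protein related to vimentin, rose (1.08 ± 0.06, adjusted p = 3.32e-05), as did Rfx2, a ciliary relative of Rfx4 (1.10 ± 0.15, adjusted p = 0.00156). Tnr, tenascin R, fell (-1.92 ± 0.13, adjusted p = 7.48e-05) where Tnc rose, and Sdc3, the pleiotrophin receptor syndecan 3, fell too (-0.88 ± 0.14, adjusted p = 0.00360). In the mCherry comparison Gfap alone of the 21 was called (1.45 ± 0.21, adjusted p = 0.0307), with 2339.7 to 3492 CPM in positive and 982 to 1303 CPM in negative libraries. Between the positive groups 4 of the 21 were higher and 7 lower in the HCRT sort, beside 9.12% and 3.77% of all genes tested. Between the negative groups 1 was higher and 4 lower, beside 3.44% and 1.5%. Gfap was among the lower ones both times (-1.18 ± 0.17 and -1.57 ± 0.13).

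Markers of other cell types also differed between the groups. Over all genes tested in the MCH sort, 8.99% were called higher and 7.07% lower. In the MCH sort, 6 of 8 mature astrocyte markers rose and 1 fell, and their summed level was 12370 to 14322 CPM in EGFP-positive against 6709 to 6794 CPM in EGFP-negative libraries. The summed level of the 10 radial glia markers was 12246 to 14546 against 7125 to 7297 CPM. Most of it was Slc1a3 (mean 5709 against 2226 CPM) and Fabp7 (4347 against 2945 CPM). Gfap (6983 against 3265 CPM) was the largest part of the astrocyte sum. All 8 oligodendrocyte lineage markers fell (1496 to 1572 against 4419.6 to 4654 CPM), 5 of 8 neuron markers fell (903 to 1255 against 1369.7 to 1439.6 CPM), 4 of 6 ependymal markers rose (142 to 159 against 78.2 to 87.4 CPM) and all 6 microglia markers fell (3.23 to 4.59 against 26.8 to 43.0 CPM). Of 8 genes of dividing cells 1 fell (916 to 998 against 1031 to 1058 CPM). Of 7 tanycyte markers 2 rose, Crym and Gpr50 (summed 204 to 252 against 132 to 143 CPM for the list). Of 7 mural and mesenchymal markers 2 rose and 4 fell (64.2 to 97.6 against 300 to 333 CPM). Of 6 endothelial markers 3 passed the filter and 1 rose (14.8 to 32.0 against 2.23 to 5.80 CPM). Most of this endothelial sum was Kdr, with a mean of 21.5 against 2.30 CPM, and Flt1 was also higher (1.12 against 0.678). Means were lower for Pecam1 (0.343 against 0.543 CPM), Cdh5 (0 against 0.163), Tek (0 against 0.153) and Cldn5 (0.0117 against 0.0530). In EGFP-positive cells 5 of the 6 microglia markers averaged under 1 CPM, and 2 endothelial markers were at 0 in all 3 libraries. The part of these other cell types in the levels of the markers was not tested.

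In the HCRT sort, 5 of 8 genes of dividing cells fell, from a summed 796 to 961 CPM in mCherry-negative to 296 to 424 CPM in mCherry-positive libraries, and 1 each of the astrocyte, ependymal and tanycyte lists rose (Gfap, Cfap65 and Crym). The astrocyte sum was 6196 to 8808 CPM in mCherry-positive and 3113 to 4499.6 CPM in mCherry-negative libraries. The tanycyte sum was 202 to 239 against 112 to 129 CPM, and it was higher in the positive libraries of the MCH sort as well. Of the 7 tanycyte markers, 6 had a log2 value above 0, among them Crym (mean 106 against 35.0 CPM). Lhx2 went the other way (46.5 against 64.4 CPM). The radial glia markers summed to 7063 to 10628 against 6807 to 9393 CPM and overlapped. Microglia markers reached 602 CPM in mCherry-positive replicate 1, against at most 149 CPM in any other library of the series. No neuron, oligodendrocyte lineage, mural, endothelial or microglia marker was called in this sort. The part of these shifts in the marker values was not tested.

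**Figure D4:**
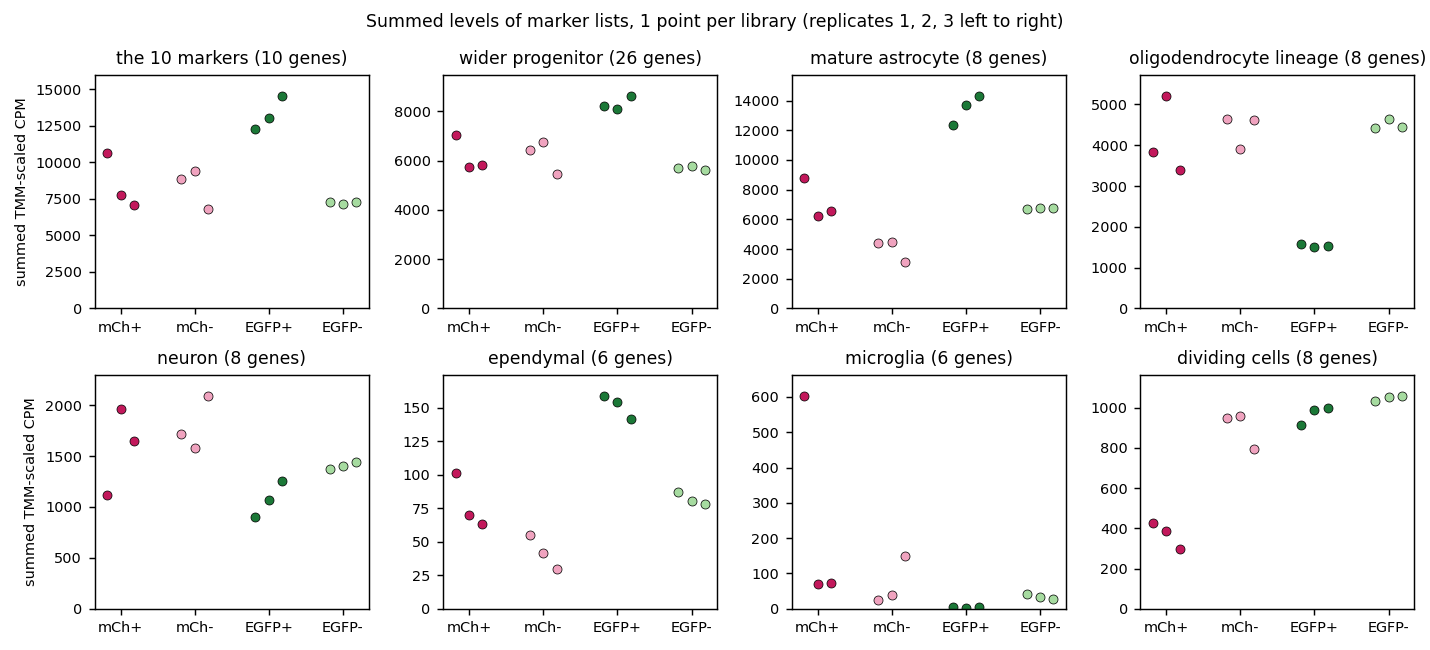
Summed TMM-scaled CPM of the 10 markers and of 7 other gene lists in every library (1 point per library, replicates 1 to 3 from left to right). The radial glia, progenitor, astrocyte and ependymal sums are highest in EGFP-positive libraries, where the oligodendrocyte and microglia sums are lowest, and the sum of dividing-cell genes is lowest in mCherry-positive libraries.

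Between some libraries of 1 group the markers went in opposite directions. From EGFP-positive replicate 1 to replicate 3, Tnc (log2 1.38), Prom1 (1.11), Rfx4 (1.01), Ptprz1 (0.96) and Slc1a3 (0.64) were higher, while Vim (-0.31), Nes (-0.44), Hopx (-0.44), Fabp7 (-0.52) and Msi1 (-0.69) were lower. In mCherry-negative replicate 3 against the mean of the other two, all 10 had the opposite sign: Rfx4 (-1.23), Slc1a3 (-1.23), Ptprz1 (-0.82), Prom1 (-0.59) and Tnc (-0.10) were lower and Msi1 (0.58), Nes (0.46), Fabp7 (0.21), Vim (0.13) and Hopx (0.11) higher. These libraries were picked after their values were seen, and the differences are a description without a test. The same division did not hold between every pair of libraries. From mCherry-positive replicate 1 to 2, Vim (539 to 404 CPM), Hopx (66.6 to 51.9) and Fabp7 (2964 to 2582) were lower together with Tnc, Prom1, Rfx4, Ptprz1 and Slc1a3. From mCherry-negative replicate 1 to 2, Slc1a3 (3529 to 4034 CPM) and Prom1 (30.2 to 37.9) were higher while Ptprz1 (1679.95 to 1118) and Tnc (56.5 to 39.1) were lower.

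Transcript length and GC content differed between the same libraries. Over all genes, the median of EGFP-positive replicate 3 minus replicate 1 was -0.41 in the shortest of 5 length bins and 0.36 in the longest, and 0.32 in the lowest and -0.26 in the highest of 5 GC bins. For mCherry-negative replicate 3 the corresponding medians were 0.27 and -0.13 by length, and -0.27 and 0.27 by GC. Neither property alone divided the markers exactly as these libraries did, and by length Nes was the only exception. The part of length and GC in these differences was not tested. Longest transcripts had 880 (Fabp7), 1261 (Hopx), 2926 (Vim), 3133 (Msi1) and 6126 bases (Nes) in the 5 that were lower in EGFP-positive replicate 3 and 3534 (Rfx4), 4089 (Prom1), 4435 (Slc1a3), 7106 (Tnc) and 8068 bases (Ptprz1) in the others, so that Nes lay among the longer ones. GC content overlapped, at 42.6% (Fabp7), 46.4% (Hopx), 46.5% (Vim), 55.5% (Nes) and 57.9% (Msi1) against 44.5% (Ptprz1), 45.7% (Slc1a3), 45.8% (Prom1), 50.03% (Rfx4) and 52.5% (Tnc). Between EGFP-positive and EGFP-negative cells, medians by length bin stayed within -0.04 to 0.05, whereas between mCherry-positive and mCherry-negative cells they went from -0.26 in the shortest to 0.16 in the longest. With an offset for both properties in each library, 8 markers were called in the EGFP comparison and 2 in the mCherry comparison, Hopx (log2 1.46, adjusted p = 0.0257) and Prom1 (1.13, adjusted p = 0.0286). Calls over all genes rose with the offset too, from 2622 to 3650 in the EGFP comparison, and they rose in the mCherry comparison as well.

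**Figure D5:**
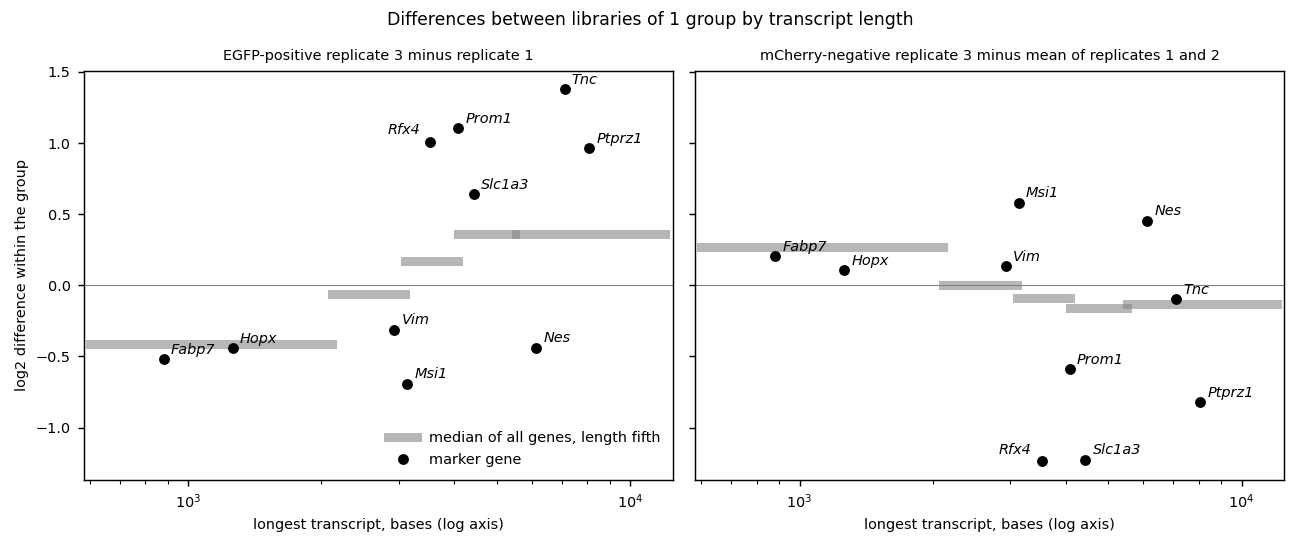
Log2 difference between libraries of 1 group for each marker (points), against the length of its longest transcript (bases, log axis), with the median of all genes in each of 5 length bins (grey bars; the first and last run on beyond the plot). Tnc, Prom1, Rfx4, Ptprz1 and Slc1a3 lie above 0 in the left panel and below 0 in the right one, and the other 5 the reverse.

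Patterns over the 12 libraries were compared by the root mean square difference of log2 CPM, each gene centred on its own mean. Among the markers, the closest pairs were Prom1 and Rfx4 (0.23), Nes and Msi1 (0.26) and Ptprz1 and Rfx4 (0.27). For the 5 markers called in any comparison, the nearest of 10279 other genes were Ctnnbip1 for Fabp7 (0.11), Wdr31 for Vim (0.12), Acot11 for Slc1a3 (0.19), Crym for Hopx (0.28) and Gfap for Tnc (0.38). Tnc, with the widest range of the 10 markers (13.9-fold between its lowest and highest library), had the largest distance to its nearest gene of these 5. The distance is not scaled to a gene's own spread over the libraries, which was 1.12 in log2 for Tnc, 0.687 for Hopx and 0.355 for Fabp7. It therefore does not rank likeness of pattern apart from that spread.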

How the data were processed

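RNA from 12 sorted-cell samples was made into cDNA with SMART-Seq v4 and sequenced, per the labels. The deposited files hold raw counts of reads per Ensembl gene, 1 file per sample, which the authors did not normalize. The submitters' processing notes name cutadapt 1.8, STAR 2.5.2b, HTSeq 0.6.1 and GRCm38. The sources used here do not give settings, annotation release or strand option. Entries that name no gene (31.4% to 38.2% of reads) were left out. Symbols, positions and lengths came from GENCODE M21, which matched 48349 of 48709 identifiers.

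The 6 samples of a comparison were fitted in edgeR 4.0.16 (R 4.3.3), with TMM scaling, filterByExpr (minimum count 10, minimum total 15), the quasi-likelihood test and Benjamini-Hochberg adjustment over all genes tested, and genes were called where the adjusted p was below 0.05. The reporter effects were set against each other in a fit of all 12 samples. The fits were tested on simulated counts. Replicate libraries differed beyond counting noise (chi-square per degree of freedom 6.20 to 88.5), so none was a copy of another. Alternatives were DESeq2 size factors, no filter, a stricter filter (10 CPM in 3 samples), DESeq2 1.42.0, limma-voom (limma 3.58.1), a replicate block, a fit of all 12 samples, each library left out and, added after seeing the data, a length and GC offset.

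The markers, the gene lists and the naming rule were chosen with earlier results of these data known. All 10 markers are named. The result of 1 listed gene of another cell type is not reported here. From each other list, up to 4 called genes of smallest adjusted p are named per comparison, or others where a count is of 5 or fewer, chosen after their values were seen. For each marker called, the nearest gene in pattern has a mean of at least 10 CPM and a symbol that is no clone or predicted-gene name.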

Additional observations from a re-analysis of the deposited data

Results flagged for a closer look

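No marker of the 10 differed between the 2 reporter effects past the threshold, but 15 genes of the other lists reported here did. The mCherry effect minus the EGFP effect was tested over 12 samples with edgeR's quasi-likelihood test. Over all 18063 genes tested, 1.44% were called. Of the 15 genes, 4 were progenitor genes or relatives and partners of the markers, from lists of 26 and 22 genes. Tnr, tenascin R, differed by 1.99 ± 0.32 (adjusted p = 0.0122). It lay at 72.9 to 105 CPM in mCherry-positive and 57.8 to 119 CPM in mCherry-negative libraries, but at 27.3 to 34.0 CPM in EGFP-positive and 104 to 119 CPM in EGFP-negative libraries. Mdk, midkine, a growth factor that binds Ptprz1, differed by -1.22 ± 0.27 (adjusted p = 0.0390), with 101 to 123 against 150 to 204 CPM in the HCRT sort and 190 to 301 against 140 to 195 CPM in the MCH sort. Mfge8 differed by -0.84 ± 0.19 (adjusted p = 0.0419) and Ncan, neurocan, a matrix proteoglycan that binds tenascins, by -0.81 ± 0.17 (adjusted p = 0.0304). Ncan lay at 262 to 314 against 328 to 379 CPM in the HCRT sort and at 891 to 946 against 634 to 674 CPM in the MCH sort.

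The other 11 belong to lists of other cell types and were named after their values were seen. In the oligodendrocyte lineage the mCherry effect was above the EGFP effect for Sox10 (1.60), Mbp (2.12) and Mag (2.72). Among genes of dividing cells it was below for Cdk1 (-1.39), Cdc20 (-1.17), Mcm2 (-1.22) and Cdca8 (-1.56). It was also below for the astrocyte enzyme Aldh1l1 (-1.21) and the smooth muscle actin Acta2 (-2.10). The fitted differences of the microglia genes Cx3cr1 (8.68) and Csf1r (7.61) rest on 1 to 3 and 1 to 25 reads per EGFP-positive library and on mCherry-positive libraries that ran from 3.47 to 76.4 and from 6.78 to 144 CPM, so their size is not a bound. Adjusted p of these 11 ranged from 0.00181 to 0.0327.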

How the results depend on the processing

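Values are given as markers called, then all genes called. The mCherry comparison (0 and 208) gave 0 and 202 with DESeq2 size factors, 3 and 778 with no filter, 3 and 511 with the stricter filter, 3 and 1476 with DESeq2, 0 and 246 with limma-voom, 4 and 1712 in the fit of all 12 samples and 2 and 504 with the length and GC offset. The EGFP comparison (5 and 2622) gave 8 and 3093 with no filter, 4 and 2065 with the stricter filter, 7 and 3520 with DESeq2, 3 and 801 in the fit of all 12 samples and 8 and 3650 with the offset. The difference between effects (0 and 261) gave 1 and 890 with DESeq2, 2 and 675 with no filter and 1 and 475 with the offset. Between positive cells (3 and 2182), 5 and 3160 were called with DESeq2, 5 and 2717 with the offset and 2 and 1591 with the stricter filter. Between negative cells (2 and 820), 3 and 1630 were called with DESeq2, 2 and 1288 with no filter and 2 and 1294 with the offset. No marker called in a comparison between 2 groups changed sign in any alternative run. The cause of these changes was not tested.

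With 1 library left out, markers called ranged from 0 to 1 and genes from 0 to 212 in the mCherry comparison, from 3 to 9 and 1137 to 5244 in the EGFP comparison, from 0 to 1 and 27 to 591 for the difference, from 0 to 3 and 598 to 2996 between positive cells, and from 1 to 5 and 269 to 2113 between negative cells. No gene was called in the mCherry comparison without mCherry-positive replicate 3 or mCherry-negative replicate 1 or 2, and the EGFP maximum was without EGFP-positive replicate 1. Values that crossed 0 in these fits, none of them called, were Slc1a3 (-0.055 to 0.51) and Msi1 (-0.43 to 0.11) for mCherry, Tnc (-0.42 to 0.32), Ptprz1 (-0.45 to 0.10), Msi1 (-0.14 to 0.39) and Rfx4 (-0.37 to 0.19) for the difference, Ptprz1 (-0.32 to 0.14), Rfx4 (-0.36 to 0.076) and Prom1 (-0.13 to 0.35) between positive cells, and Ptprz1 (-0.29 to 0.27) and Rfx4 (-0.31 to 0.18) between negative cells. Under other settings the difference crossed 0 for Rfx4 (0.0061 with DESeq2 size factors, 0.12 with the stricter filter, 0.0073 with DESeq2, 0.057 with limma-voom and 0.048 with the offset) and for Tnc (0.11 with the stricter filter), and Ptprz1 between negative cells was -0.023 with limma-voom.

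The samples were not treated as paired, since the labels do not say that a number marks a shared culture. Deviations from the group mean in same-numbered pairs correlated at 0.19, -0.04 and 0.10 in the HCRT sort. In the MCH sort the values were 0.29, 0.01 and 0.18. As a hint from the data, 4 of these 6 pairs, numbers 1 and 3 of each sort, had the highest value of their positive library. Each positive library was compared with the negative libraries of its sort. Replicate 2 of mCherry-positive cells reached 0.22 with a negative library of another number, above each same-numbered value of the HCRT sort. With the replicate block, markers and genes called were 1 (Tnc, adjusted p = 0.0386) and 343 for mCherry, 8 and 3409 for EGFP (with Rfx4 at 0.0204, Prom1 at 0.0136 and Ptprz1 at 0.0348), 0 and 293 for the difference, 3 and 1326 between positive cells and 2 and 547 between negative cells. With the block the difference for Rfx4 was 0.10 and Ptprz1 between negative cells was -0.028. Depth limits mainly Msi1, at 76 to 229 reads per library.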
